A study of Urocitellus parryii with 44 samples.

Results

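The translation elongation factor genes were examined in brown adipose tissue of arctic ground squirrels, hibernators that were compared in winter torpor and in summer activity. The family was taken as all probes whose only gene symbol was Eef1a1, Eef1a2, Eef1b2, Eef1d, Eef1g, Eef1e1, Eef2 or Eef2k. It held 45 of the 38400 probes on the 4 membranes, for all 8 genes and from 40 different clones, and all 45 could be tested. Brown fat is the tissue that burns fat to make heat. Radioactively labelled total RNA was bound to mouse cDNA membranes named MA07, MA08, MA10 and MA11, so a symbol names the mouse gene whose probe was spotted. The summer active group held 3 animals sampled in August and the winter torpor group 5 animals, and the labels give no age. For 3 animals (summer 1, summer 2 and torpid 5) the RNA had been split and measured in duplicate, which gave 5 summer and 6 torpid columns on each membrane. Duplicates were averaged to 1 value per animal. Season and activity state changed together and cannot be told apart, and in bulk tissue fewer cells of a type and less RNA per cell cannot be told apart either.

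In protein synthesis, eEF1A carries each aminoacyl-tRNA to the ribosome as a GTPase. The eEF1B complex, of which Eef1b2 encodes the alpha, Eef1d the delta and Eef1g the gamma subunit, recharges eEF1A with GTP. eEF2 then moves the ribosome along the mRNA, and eEF2 kinase, encoded by Eef2k, phosphorylates eEF2 and slows that step. In hibernators, protein synthesis is known to be strongly lowered during torpor. Eef1a1 is the widely expressed form of eEF1A, and Eef1a2 is the form of muscle and nerve, similar enough in sequence that a cDNA probe may bind both transcripts. Eef1e1 encodes a small protein of the multi-tRNA synthetase complex that is related to the eEF1B subunits.

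Of the whole family, Eef1g had the lowest torpor values relative to summer, by 4 probes on MA10 that differed 5.39- to 7.43-fold. Both spots of Eef1d, its partner in the complex, were lower by 1.45 and 1.89 on the log2 scale. Eef2k lay within 0.15 of no difference with all 4 of its probes. The 14 Eef1a1 probes went both ways, from -1.33 to 1.93, and the 10 Eef2 probes ran from -0.94 to 0.72. All values are log2 of spot intensity over the median of the column, and differences are torpor minus summer. The family was chosen by its values in this same contrast of torpor with summer, so differences and counts of called probes are given as a description and support nothing by themselves. By limma, 4 of the 45 probes (8.89%) passed an adjusted p of 0.05 in torpor against summer, all of Eef1g on MA10 and all lower, beside 0.309% of all 37848 tested probes in both directions and 0.0502% lower. Of the 45 differences 29 were negative, with a median of -0.21, beside 18921 negative (50%) among all tested probes.

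**Figure D1:**
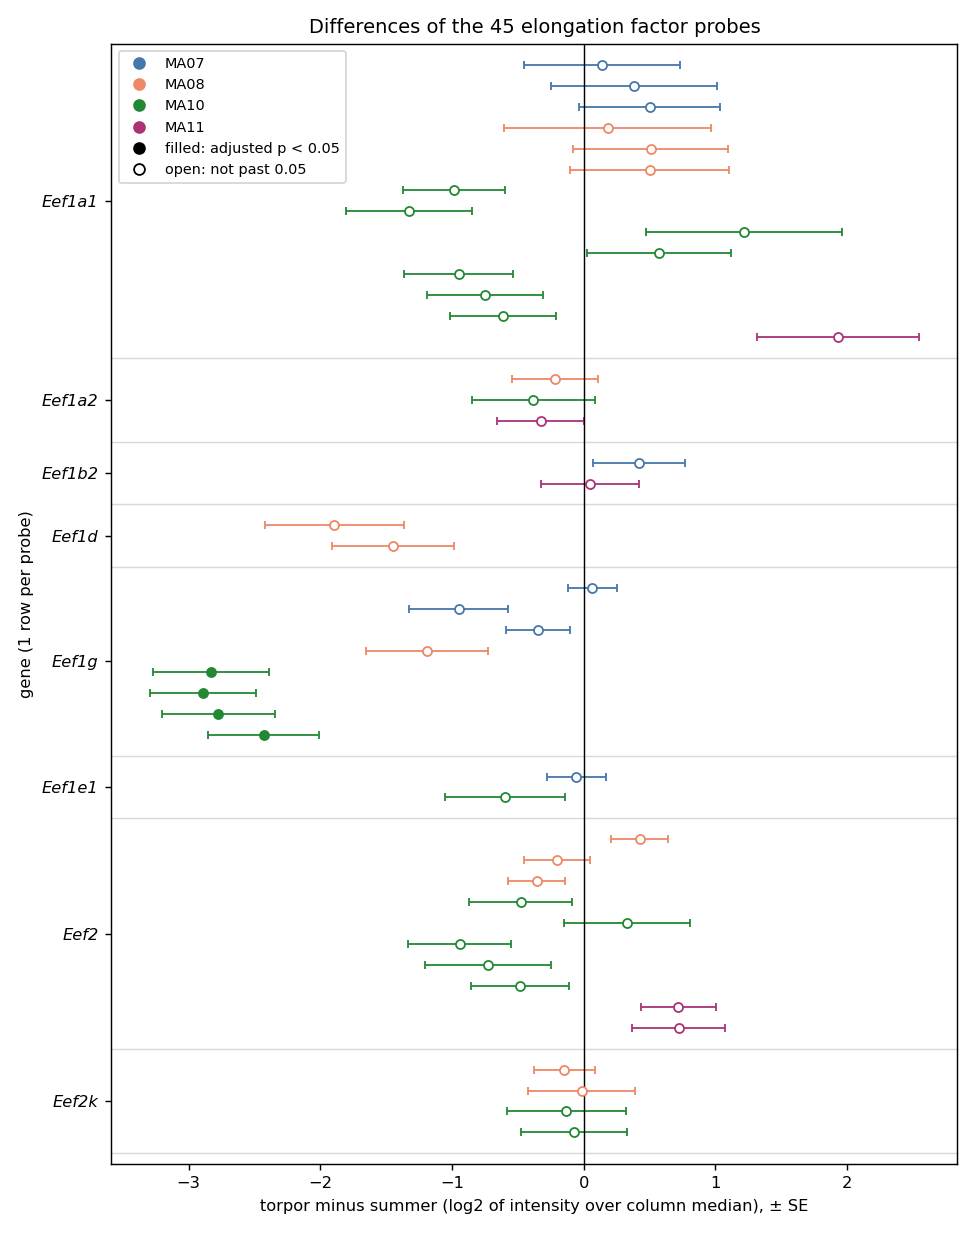
Torpor minus summer difference of each of the 45 probes (log2 of intensity over column median, horizontal bars ± SE, 3 summer and 5 torpid animals), 1 row per probe, coloured by membrane; filled points passed an adjusted p of 0.05. The 4 filled Eef1g points on MA10 lie between -2.43 and -2.89, and the 4 Eef2k points lie close to 0.

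Facts of the columns come first, because they touch several genes of the family. The duplicates of 1 split RNA differed more for these probes than over all probes of the 4 membranes together. The median size of the difference between the first and the second duplicate was 0.80, 1.07 and 0.38 over the family for summer animal 1, summer animal 2 and torpid animal 5, beside 0.44, 0.44 and 0.32 over all probes. Over all probes of MA10 alone it was 0.87, 0.77 and 0.47, and that membrane held 20 of the 45 family probes. For summer animal 1 and torpid animal 5 the family median thus did not exceed that of MA10. Differences above 1 occurred in 16 of 43 probes for summer animal 1, in 23 of 45 for summer animal 2 and in 4 of 44 for torpid animal 5. The share of all probes above 1 is not given here, so these counts are not read as an excess. In summer animal 2 the first duplicate was brighter than the second by a median of 0.36 on MA07, 0.35 on MA08 and 0.42 on MA11 among probes above the 90th signal percentile, and dimmer by 0.34 on MA10. A dimmer first duplicate on MA10 was not peculiar to that animal. In summer animal 1 the median of the first minus the second duplicate for such probes was -0.52 on MA10. It was also negative elsewhere, from -0.27 to -0.07, so only summer animal 2 changed direction between membranes. In torpid animal 5 the MA10 median was 0.12. Whether the first duplicate on MA10 was the same portion of RNA as on the other membranes was not tested. MA10 was the least precise membrane, with a median SE of 0.43 against 0.23 on MA07, 0.25 on MA08 and 0.28 on MA11. Of its 20 family probes, 17 had a negative difference. Cytosolic ribosomal protein probes, which share the role in translation, were negative for 87 of 93 on MA10 with a median of -0.85, and had medians of -0.15, -0.05 and -0.22 on MA07, MA08 and MA11. Of these ribosomal probes 7 passed the adjusted threshold by limma, all on MA10. That membrane also held 16 of the 19 probes of the whole series called lower in torpor, which is 0.172% of its tested probes. The number of arrays limits the precision of every value.

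The tissue label was checked against brown adipocyte markers. Probes for 7 of the 12 listed genes were analysed, with signal percentiles from 4.45 (Dio2) to 93.5 (Fabp3) and a median of 64.9. Ucp1 was not among the 7. Cidea gave 53.0, 75.7 and 28.2, and Ppargc1a gave 84.1 and 42.9. Skeletal muscle markers ran from percentile 9.63 to 98.9 over 8 probes, with a median of 36.4. The muscle genes Tnnc2 and Actn3 gave 98.9 and 92.6 on MA11, but Actn3 gave 27.6 on MA07, with a difference of -0.53. Ckm gave 9.63 and 22.6. The nerve list reached 99.4, and the immune list had a median of 64.6. The percentiles of the lists overlapped, so they do not set brown fat apart from these other cell types. The torpor differences of the muscle probes had a median of -0.28 and went both ways, from -0.77 (Tnnc2) to 0.97 (Actn3 on MA11). The medians were -0.31 for brown adipocyte, -0.15 for white adipocyte, -0.28 for erythroid and -0.03 for immune probes. They were 0.11 for nerve and 0.14 for endothelial probes. No probe of the brown fat, white fat, muscle, nerve, immune, endothelial or erythroid lists passed the adjusted threshold by limma, while 8 of 61 tested (13.1%) had an unadjusted p under 0.05, beside 11.6% of all tested probes. Their part in the values below was not tested.

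Eef1a1 delivers aminoacyl-tRNA and was measured by 14 probes of 12 clones. It had mean signal percentiles from 79.1 to 99.9. The probe with the highest percentile, MA07 probe 7722, read 8.01, 5.94 and 8.69 in summer animals 1, 2 and 3 and 8.46, 8.33, 7.26, 8.35 and 7.83 in torpid animals 1 to 5. The groups overlapped, and summer animal 2 lay below all other animals. The mean was 7.55 ± 1.43 (SD, n = 3) in summer and 8.05 ± 0.50 (SD, n = 5) in torpor, for a difference of 0.50 ± 0.54 (SE).

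The low value of summer animal 2 came from 1 of its 2 columns, which was the lowest of all 11 on each of the 6 MA07 and MA08 probes. On probe 7722 its first duplicate read 8.66, as high as the other animals, and its second 3.22, a 43.3-fold gap between duplicates of the same RNA. The other MA07 probes gave 7.11 against 1.73 (probe 3224) and 5.62 against 1.49 (probe 3234). The 3 MA08 probes did the same, at 5.15 against 1.33 (probe 2432), 3.80 against 0.37 (probe 7221) and 3.64 against 0.11 (probe 7704), of which the last pair are spots of 1 clone. Ranked by size among all MA07 probes, these gaps stood at places 2, 4 and 19, and among MA08 probes at places 13, 23 and 19. Gaps above 3 were found for 0.543% of MA07 and 0.517% of MA08 probes in this animal. None of the MA10 or MA11 probes of Eef1a1 showed such a gap in summer animal 2, where the first duplicate minus the second ran from -1.68 to 1.61 on MA10 and was -0.65 on MA11.

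The direction of the Eef1a1 difference on MA07 and MA08 turned with that column. With summer animal 2 represented by its first duplicate alone, the 6 differences were -0.76, -0.30, -0.40, -0.46, -0.06 and -0.09 in the order of membrane and probe number. With its second duplicate alone they were 1.04, 1.07, 1.41, 0.82, 1.08 and 1.09. As reported, with both averaged, they lay between 0.14 and 0.51. No direction for Eef1a1 can be read from these membranes.

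On MA10 the Eef1a1 probes disagreed among themselves. Probe 4049, among the brightest on that membrane, read 9.84, 8.79 and 9.59 in summer and 8.98, 7.58, 8.82, 8.11 and 6.91 in torpor, a difference of -1.33 ± 0.48 (SE). Its duplicates read 8.79 and 10.90 in summer animal 1 and 7.58 and 6.24 in torpid animal 5. The difference was -0.72 with first duplicates only and -1.94 with second duplicates only. Probe 1016 read 8.77, 8.14 and 8.63 in summer against 7.53, 7.94, 7.98, 7.28 and 6.94 in torpor. It was the only 1 of the 14 whose groups did not overlap, with a gap of 0.16 between the lowest summer and the highest torpid animal. Probes 7023, 7787 and 9456 gave -0.95, -0.75 and -0.61. Probes 5308 and 5319 went the other way, at 1.22 ± 0.75 (SE) and 0.57 ± 0.55 (SE). Probe 5308 read 4.04, 0.27 and 0.66 in summer and 3.25, 3.48, 3.59, 3.25 and 0.80 in torpor, so that summer animal 1 stood with the high torpid animals and torpid animal 5 with the low summer animals. The clone of probe 5308 was also spotted on MA11, as probe 2410. There the values were 3.27, 0.65 and 1.86 in summer and 2.57, 4.38, 4.25, 5.10 and 2.98 in torpor, with the highest difference of the family at 1.93 ± 0.62 (SE). Both spots of this clone had summer animal 1 above summer animals 2 and 3, and their within-group deviations differed by a root mean square of 0.94. None of the Eef1a1 probes passed the adjusted threshold.

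**Figure D2:**
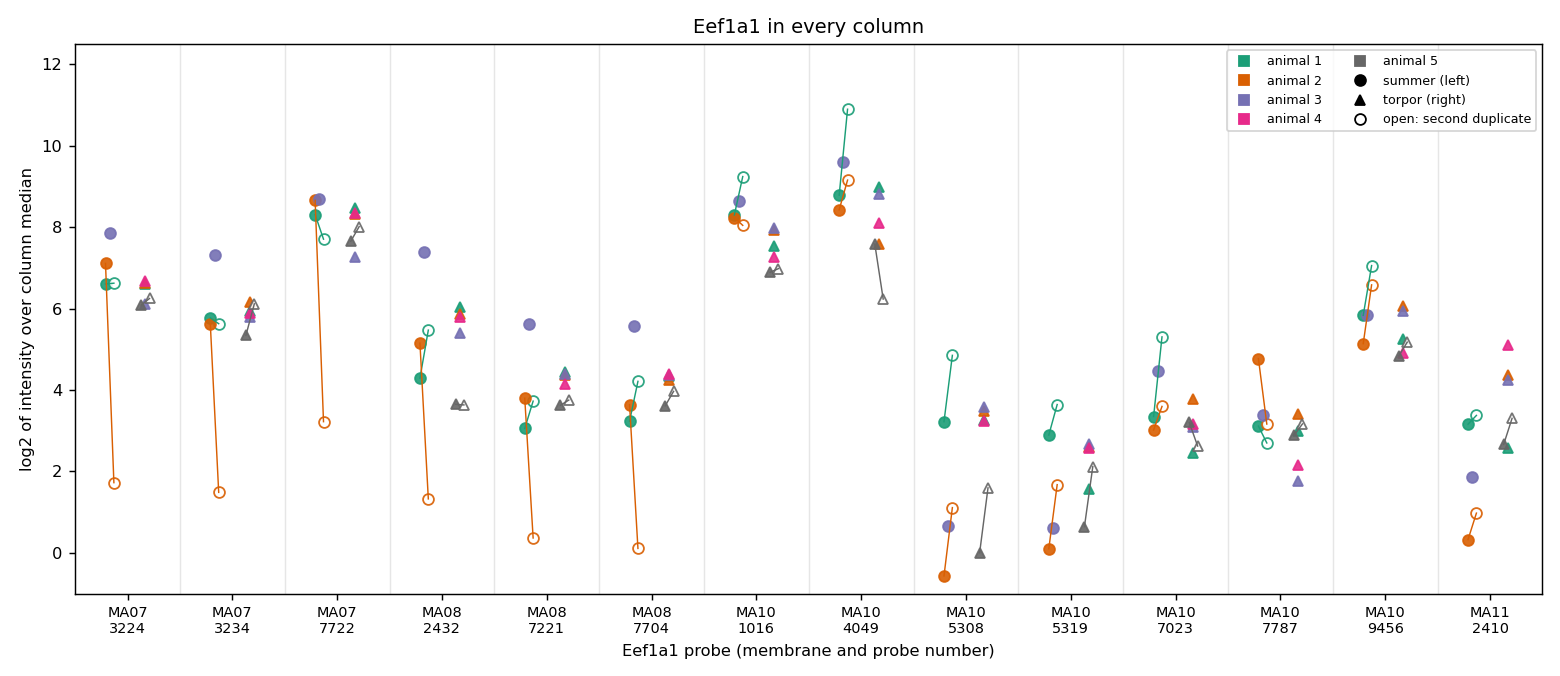
Eef1a1 in each of the 11 columns of a membrane for its 14 probes (log2 of intensity over column median); circles are summer, triangles torpor, colours are animals, open symbols second duplicates, and lines join duplicates of 1 RNA. The open orange circle of summer animal 2 lies far below the other columns on MA07 and MA08, at 3.22 on probe 7722, and not on MA10.

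Eef1a2, the muscle and nerve form of eEF1A, had 3 probes, all with slightly negative differences. MA08 probe 5425 read 1.72, 1.98 and 2.90 in summer and 2.59, 2.23, 2.07, 1.45 and 1.59 in torpor. The groups overlapped, with torpid animals 4 and 5 below every summer animal and summer animal 3 above every torpid animal, and the difference was -0.21 ± 0.33 (SE). The MA10 and MA11 probes gave -0.38 ± 0.47 (SE) and -0.33 ± 0.33 (SE). Without summer animal 3 the MA08 value was 0.14.

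In the eEF1B complex, Eef1g stood apart on MA10. Probe 9274 read 3.93, 5.23 and 4.45 in summer animals 1 to 3 and 1.17, 2.01, 1.48, 2.02 and 1.54 in torpid animals 1 to 5. Every torpid animal lay below every summer animal, with a gap of 1.91. The mean was 4.54 ± 0.66 (SD, n = 3) against 1.64 ± 0.37 (SD, n = 5), which is 7.43-fold lower in torpor (-2.89 ± 0.40, SE).

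Probe 9264 read 3.28, 4.43 and 4.52 in summer against 0.53, 1.76, 0.82, 1.95 and 1.18 in torpor (-2.83 ± 0.44, SE). Probe 9284 was dimmer and read 1.94, 3.57 and 2.50 against -0.67, 0.15, 0.02, -0.39 and 0.38 (-2.78 ± 0.43, SE). Probe 9396, with the highest signal percentile of the gene, read 5.21, 5.87 and 6.07 against 2.29, 3.33, 3.94, 3.24 and 3.63 (-2.43 ± 0.42, SE). In all 4 probes summer animal 1 was the lowest of its group and still above every torpid animal. In the order of probe number its first duplicate read 2.20, 3.45, 1.34 and 4.55, and its second 4.36, 4.41, 2.54 and 5.88. With second duplicates for both split summer animals, summer animal 1 was not the lowest of its group on any of these probes. The separation also held without averaging duplicates: in each of the 4 probes all 5 summer columns lay above all 6 torpid columns, with gaps of 0.25, 1.43, 0.79 and 0.61 in the order of probe number, as did 1.33% of all tested probes. The groups of animals did not overlap, with torpor lower, in 8 of the 45 family probes (17.8%) and in 4.13% of all tested probes. These were 4 probes of Eef1g, 2 of Eef2, 1 of Eef1a1 and 1 of Eef1d, and all but the Eef1d probe were on MA10. Eef2 probe 2777 was counted with values in only 3 torpid animals and a gap of 0.008. The share over MA10 alone is not given here. The share of all probes was 4.37% with torpor higher and 8.5% in both directions together.

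The 4 probes are of 4 different clones, and 3 of them lie 10 index positions apart (9264, 9274 and 9284). The other probes within 10 positions of each had median differences of -0.33, -0.19, -0.01 and -0.44, in the order of probe number. Among these neighbours 1 passed the threshold, Rplp1 at probe 9393, which encodes an acidic protein of the ribosomal stalk and lies 3 positions from probe 9396 (-1.95). With summer animal 2 represented by its first duplicate alone, the 4 Eef1g probes gave -2.87, -3.22, -3.07 and -2.61. With its second alone they gave -2.78, -2.57, -2.48 and -2.25. All 4 passed the threshold in both cases.

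Eef1g probes on the other membranes did not show that size of difference. MA08 probe 6072 read 0.66, 1.11 and 3.12 in summer and 0.69, 0.55, 0.71, 0.38 and -0.14 in torpor. Summer animal 3 stood above the rest and summer animal 1 lay within the torpid range, for a difference of -1.19 ± 0.46 (SE). Summer animal 2 was 2.42 by its first and -0.21 by its second duplicate on this probe. On MA07, probe 2075 gave 0.07 ± 0.19 (SE), with 0.59, 0.23 and 0.12 in summer and 0.50, 0.12, 0.50, 0.52 and 0.25 in torpor. Probes 7181 and 3018 of MA07 gave -0.34 ± 0.24 (SE) and -0.95 ± 0.38 (SE), and the latter was at signal percentile 9.34 with an empty cell in 1 column. With low signals raised to the 10th percentile, probe 3018 gave -0.32. Of the 8 Eef1g probes 7 were negative, with a median of -1.81. Whether the MA10 and other probes differ was not tested, because the contrast was the one that chose the family.

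**Figure D3:**
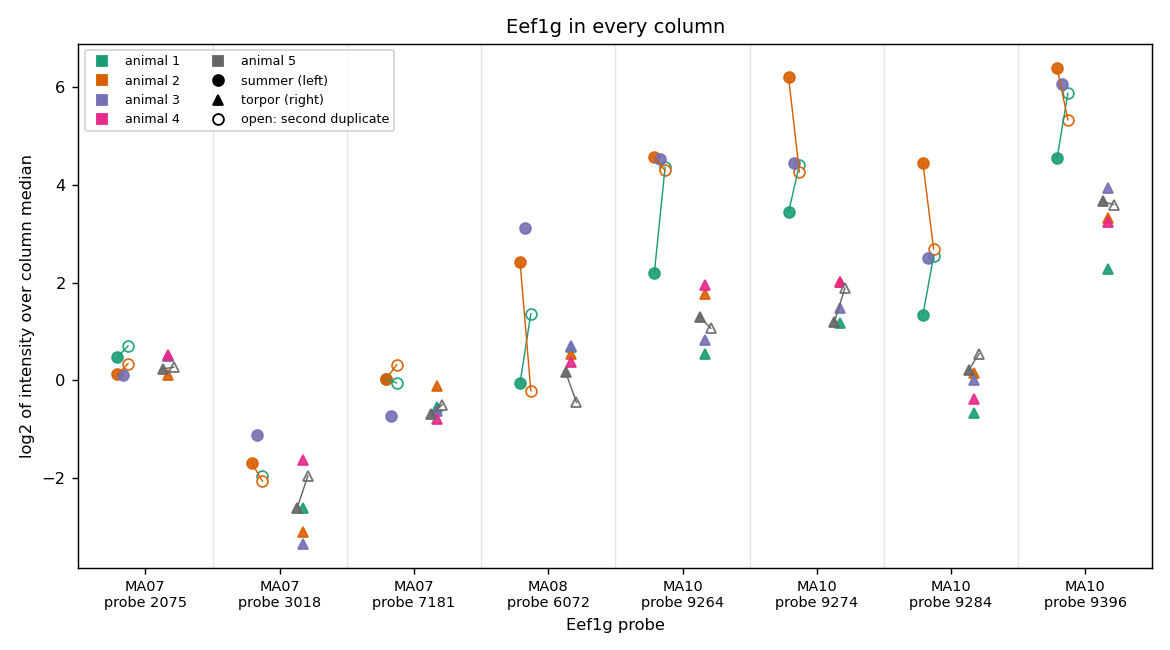
Eef1g in each of the 11 columns of a membrane for its 8 probes (log2 of intensity over column median); circles are summer, triangles torpor, colours are animals, open symbols second duplicates, and lines join duplicates of 1 RNA. On the 4 MA10 probes every circle lies above every triangle, with the narrowest gap of 0.25 on probe 9264, while on MA07 and MA08 the columns overlap.

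The genes whose 8 animal values followed Eef1g MA10 probe 9396 most closely were Rplp1, Agt, Rps14, Rps15 and Rpl36. Likeness was the root mean square difference after each probe was centred on its mean over the animals. It was 0.44, 0.46, 0.48, 0.49 and 0.51 for these genes, against a median of 1.38 over the 5165 named probes of other genes on MA10 with a value in every animal. Rplp1, Rps14, Rps15 and Rpl36 encode proteins of the ribosome and Agt encodes angiotensinogen. Their differences on these MA10 probes lay between -1.69 and -2.30. The other Agt probes gave -0.28 on MA08 and 0.01 on MA11. The measure keeps the difference between the groups, so genes found with it had to share a difference near that of Eef1g, and the same holds for Eef1d and Eef2k below.

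Eef1d, which encodes the delta subunit, was represented by 2 spots of 1 clone on MA08, 483 index positions apart. The brighter spot, probe 5974, read 0.89, 2.10 and 3.55 in summer and 0.90, 1.06, 0.67, 0.22 and 0.81 in torpor. Probe 5491 read 1.07, 1.90 and 3.58 in summer and 0.89, 0.64, 0.41, -0.95 and 0.46 in torpor. In both, summer animal 3 was highest, summer animal 2 next, and summer animal 1 close to the torpid animals. Summer animal 3 was the highest summer animal on 11 of the 12 family probes of MA08, beside 35.8% of all MA08 probes, and its part in the Eef1d difference is given below by leaving it out. The differences were -1.45 ± 0.47 (SE) and -1.89 ± 0.53 (SE), and neither passed the adjusted threshold. The groups overlapped on probe 5974, and on probe 5491 a gap of 0.18 kept them apart. Both spots gave nearly the same pattern over the animals, with within-group deviations that differed by a root mean square of 0.32.

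The height of summer animal 2 in Eef1d again depended on the column. Its first duplicate read 3.57 and 3.54 on probes 5491 and 5974, level with the 3.58 and 3.55 of summer animal 3. Its second read 0.24 and 0.66, inside the torpid range. Summer animal 1 read 0.60 and 0.29 by its first duplicate and 1.54 and 1.49 by its second. The Eef1d difference on probe 5974 was -1.93 with the first duplicate of summer animal 2 and -0.97 with the second. It was -2.09 without summer animal 1, where it passed the threshold (limma adjusted p = 0.032), and -0.76 without summer animal 3 (adjusted p = 0.50). Over the 8 fits that each left out 1 animal the adjusted p ran from 0.032 to 0.50.

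The genes most like Eef1d probe 5974 on MA08 were Gm9843, B3galnt1, Eef1g, Cdc42bpb and Prpf38b. Their root mean square differences ran from 0.33 to 0.43, against a median of 1.04 over 6522 probes. Eef1g was at place 3, by probe 6072 at 0.39. The differences of the 5 genes were -1.57, -1.66, -1.19, -0.85 and -0.92.

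Eef1b2, the alpha subunit that exchanges the nucleotide on eEF1A, had 2 probes with small differences. MA07 probe 7741 read 2.45, 0.96 and 2.60 in summer and 2.83, 2.43, 2.17, 2.44 and 2.25 in torpor. Summer animal 2 lay below all others and the other summer animals lay within the torpid range, for a difference of 0.42 ± 0.35 (SE), or -0.10 without that animal. The MA11 probe gave 0.05 ± 0.37 (SE). Eef1e1 MA07 probe 9477 read 2.05, 2.65 and 2.18 in summer and 1.71, 2.47, 2.31, 2.27 and 2.43 in torpor, a difference of -0.05 ± 0.23 (SE). Its MA10 probe gave -0.60 ± 0.45 (SE).

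Eef2, the translocase, was measured by 10 probes of 8 clones, of which 6 were negative and 4 positive, with a median of -0.28. Its brightest probe, MA10 probe 8321, read 3.67, 3.54 and 3.33 in summer and 3.09, 3.08, 3.60, 2.46 and 2.92 in torpor. The groups overlapped through torpid animal 3, and the difference was -0.48 ± 0.38 (SE). The duplicates of summer animal 1 read 2.26 and 5.08 on this probe, a wider gap than any between the animals.

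By membrane, the Eef2 differences were as follows. On MA10, 4 of 5 probes were negative, down to -0.94 ± 0.39 (SE) at probe 2767. Both MA11 probes were positive, at 0.72 ± 0.29 (SE) and 0.72 ± 0.35 (SE), and the MA08 probes gave 0.43, -0.20 and -0.36. A clone spotted on both MA08 and MA11 gave 0.43 and 0.72, and a clone spotted at 2 places on MA08 gave -0.20 and -0.36. On MA11 probe 7023 the summer animals read 1.38, 2.20 and 1.15, the median torpid animal 2.51 and the highest 2.95, and the groups overlapped. Probes 1677 and 2777 of MA10 lay at signal percentiles 13.1 and 14.0, and empty cells left them without a value in 1 and 2 torpid animals. None of the 10 passed the adjusted threshold.

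Eef2k, whose product restrains eEF2, showed the least difference between the groups. Its probe with the highest signal percentile, MA10 probe 8488, read 4.08, 3.15 and 4.68 in summer and 3.89, 4.19, 3.77, 3.67 and 3.96 in torpor. The torpid animals lay inside the summer range. The mean was 3.97 ± 0.77 (SD, n = 3) against 3.90 ± 0.20 (SD, n = 5), for a difference of -0.07 ± 0.40 (SE). The other probes gave -0.13 ± 0.45 (SE) on MA10 and -0.15 ± 0.23 (SE) and -0.02 ± 0.41 (SE) on MA08. These 4 probes are of 4 clones on 2 membranes, and the groups overlapped in each. Without summer animal 2 probe 8488 gave -0.48. The genes most like this probe were H1f3, Phldb1, Tbc1d8, Rpl27 and Atp6v1h, at root mean square differences from 0.20 to 0.23 against a median of 0.68, with differences of -0.41, 0.17, -0.32, -0.17 and 0.13.

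**Figure D4:**
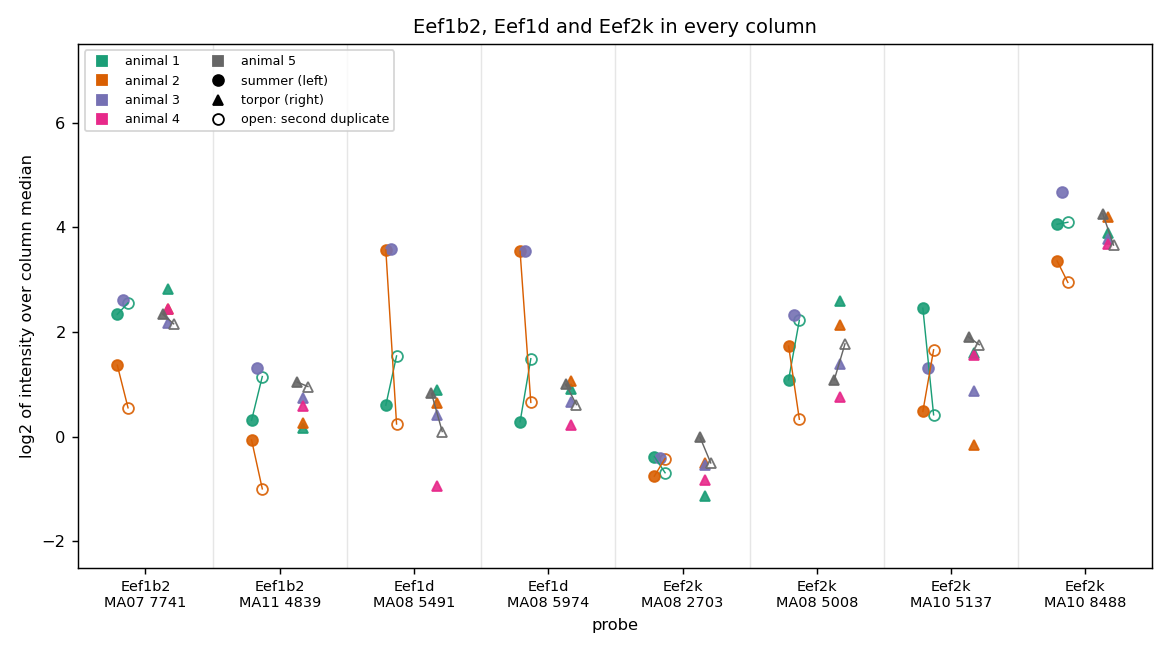
Eef1b2, Eef1d and Eef2k in each of the 11 columns of a membrane (log2 of intensity over column median); circles are summer, triangles torpor, colours are animals, open symbols second duplicates, and lines join duplicates of 1 RNA. On both Eef1d spots the duplicates of summer animal 2 are 3.32 and 2.89 apart, and on the 4 Eef2k probes circles and triangles overlap.

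Genes that act beside the elongation factors were taken from 5 lists, with 146 probes for 52 genes, of which 145 probes could be tested. By limma 0 passed the adjusted threshold, beside 0.309% of all tested probes. Without adjustment, p was under 0.05 for 19 probes with higher and 5 with lower torpor values. The same held for 6.39% and 5.18% of all tested probes. The median over the 145 was 0.12.

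Regulators of eEF2 kinase and of eEF2 phosphorylation had 37 of 62 positive differences and a median of 0.23, and 11 higher probes and 1 lower probe had an unadjusted p under 0.05. Calm2, 1 of the genes for calmodulin, which activates the kinase, was positive in 9 of 10 probes with a median of 0.75. Its MA08 probe 6021 read 0.85, 0.22 and 0.54 in summer and 1.44, 1.57, 1.52, 1.19 and 1.06 in torpor (0.82 ± 0.22, SE, limma adjusted p = 0.18). All torpid animals lay above all summer animals on this probe. On probe 7475 of MA08 the difference was 1.34 ± 0.38 (SE), and summer animal 1, at 1.38, lay within the torpid range. Summer animal 2 was the lowest animal on both probes, and on every other Calm2 probe with a positive difference. On MA07 probe 8452 it read 0.82, against 3.19 and 3.40 in the other summer animals and 2.93 to 3.35 in torpor. The part of this animal in the Calm2 median was not tested. Calm3, another calmodulin gene, was negative in 4 of 4 probes, from -0.36 to -0.08. Ppp2cb, a catalytic subunit of protein phosphatase 2A, which removes the phosphate from eEF2, had differences from -0.58 to 0.90 over 4 probes. Its MA11 probe 6679 read 0.60, 0.32 and 0.64 in summer and 1.42, 1.36, 0.84, 1.60 and 1.89 in torpor (0.90 ± 0.26, SE, limma adjusted p = 0.21).

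The other cytosolic elongation and termination factors had 25 of 38 positive differences and a median of 0.11. Abce1, the ribosome recycling ATPase, gave 0.80 ± 0.25 (SE) on MA11 and -1.12 ± 0.50 (SE) on MA10, and its 5 probes had a median of -0.11. Gspt1, the GTPase that works with the termination factor, gave 1.19 ± 0.42 (SE) on MA10 and a median of 0.33 over 5 probes. Proteins that bind eEF1 had 12 of 24 positive differences and a median of -0.02. Aimp1, a scaffold of the multi-tRNA synthetase complex, gave 0.90 ± 0.32 (SE) on MA11 but -0.42 on MA07. Eprs, a tRNA synthetase of that complex, gave 0.64 ± 0.22 (SE) on MA07 and was positive in 3 of 4 probes.

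The genes for diphthamide synthesis, which modifies eEF2, were positive in 8 of 10 probes with a median of 0.32. The single Dnajc24 probe gave 1.23 ± 0.50 (SE), and Dph5 was positive in 3 of 4 probes, with 0.41 ± 0.23 (SE) on MA11. Mitochondrial elongation factors were positive in 6 of 11 probes with a median of 0.03. Tsfm, the exchange factor of the mitochondrial system, gave 0.81 ± 0.40 (SE), and Tufm, its elongation factor Tu, gave -0.54 on MA10 and 0.03 on MA07. No probe of these 4 lists passed the adjusted threshold, and the smallest adjusted p by limma was 0.24.

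**Figure D5:**
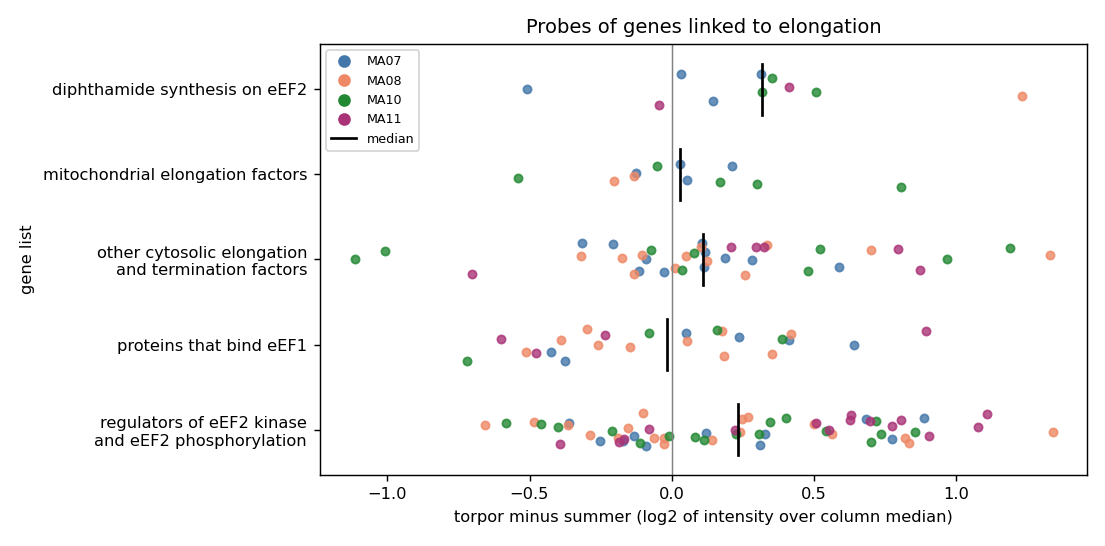
Torpor minus summer differences (log2 of intensity over column median) of the 145 tested probes in 5 lists of genes linked to elongation, 1 point per probe coloured by membrane, with the list median as a black bar and random vertical spread. The medians lie between -0.02 and 0.32 and no point passed an adjusted p of 0.05.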

How the data were processed

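The authors deposited linear spot intensity values, divided by the median of each column (1 in every column with empty cells ranked lowest), per the column values. How images and background were treated is not given in the sources used here. The empty cells (3.45% of values) were missing. Intensities were taken to log2 and duplicates of a split RNA were averaged, for 3 summer and 5 torpid animals. Membranes were fitted separately by lmFit and eBayes of limma 3.58.1 under R 4.3.3 (two-sided, at least 2 animals with values per group), and Benjamini-Hochberg adjustment covered all 37848 tested probes. The fit was tested on simulated data. Symbols came from the platform annotation, which can be old, and no probe with several symbols held a family gene. All 8 symbols are in the squirrel's RefSeq annotation. Signal percentiles are means over columns. Values in every animal are given for each gene's probe of highest percentile and each probe past the threshold; other probes were added after their values were seen. From each related list the 2 genes of smallest p were named, and Calm3 was added after its values were seen. Family and lists were chosen with earlier results of these data known. Alternatives covered scaling, a floor, dim probes, variance models, duplicates, adjustment, a replicate block and each animal left out. The choice of either duplicate of summer animal 2 was added after seeing the data.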

Additional observations from a re-analysis of the deposited data

Results flagged for a closer look

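In 5 of 44 family probes with at least 4 torpid values, 1 torpid animal stood apart from the rest by a gap test on the group's range. Chance gives about 1 in 20 for independent probes, but these probes share the same torpid animals. The share over all tested probes is not given here, so the count is not read as an excess. Torpid animal 5 was low on Eef1a1 MA08 probe 2432 at 3.64, against 5.40 in the nearest animal, and its duplicates read 3.65 and 3.63. The same animal was low on Eef1a1 MA08 probe 7704 at 3.79 (nearest 4.26) and on Eef1a1 MA10 probe 5308 at 0.80 (nearest 3.25). On Eef1d MA08 probe 5491 torpid animal 4 read -0.95 (nearest 0.41), whereas the other spot of that clone gave it 0.22. On Eef1e1 MA07 probe 9477 torpid animal 1 read 1.71 (nearest 2.27).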

How the results depend on the processing

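The count of family probes past the threshold, 4 of 45, stayed between 3 and 5 under the 20 alternatives. It ran from 3 to 5 with 1 animal left out, and the fifth probe, without summer animal 1, was of Eef1d. The 4 called Eef1g probes had negative differences in 80 of 80 fits and passed in 76. All summer columns lay above all torpid columns on these probes, so fits that left out an animal or a duplicate had to be negative. The sign in those fits says nothing about stability. Probe 9264 was lost with first duplicates only (limma adjusted p = 0.051), and probe 9396 without summer animals 2 (0.051) or 3 (0.062) or torpid animal 2 (0.065). Of the 11 differences followed through all alternatives, 204 of 220 values moved by less than 1 SE. Removal of dim probes, the variance models and adjustment within each membrane cannot change a difference, and the floor left these 11 unchanged. Values from these settings are counted in both the 204 and the 80 above, and they say nothing about stability. Eef1a1 probe 7722 ranged most, from -0.65 with cyclic loess between columns to 1.55 with second duplicates only. The small differences followed for Eef1a2, Eef1b2, Eef1e1 and Eef2k also took both signs. For related genes the count of 0 held except without summer animal 1, when 1 Calm2 probe passed (1.88), and without summer animal 3, when 1 Dnajc24 probe passed (2.05), so leaving out animals gave 0 to 1. The replicate block, which uses the animal numbers shared between groups, called 4 family probes and 0 related probes. The numbers name different animals, and same-numbered animals did not deviate together (correlations over probes from -0.06 to 0.05). The median difference between duplicates of split RNA over the family was 0.67 as deposited and 0.56 after quantile normalization. Among dim probes, raising low signals to the 10th percentile moved Eef1g probe 3018 from -0.95 to -0.32, and the replicate block gave -1.38. Values at low signal, such as Eef2 probes 1677 and 2777, rest on the fewest animals.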

Other observations

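Besides Eef1a1, the duplicates of summer animal 2 also lay apart for Eef1d and Eef1g on MA08. The gap was 3.32 and 2.89 for the 2 spots of Eef1d and 2.63 for Eef1g probe 6072, which ranked 32, 59 and 83 by size among all MA08 probes. For Eef1b2, Eef1e1 and Eef2k it stayed between -1.18 and 1.84. Ribosomal protein probes were brighter in the first duplicate of this animal by a median of 0.67 on MA07, 0.76 on MA08 and 0.88 on MA11, and dimmer by 1.15 on MA10. For summer animal 1 the median of the first minus the second duplicate was -1.16 on MA10 and from -0.57 to -0.32 elsewhere.

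The 3 pairs of spots of 1 clone on the same membrane, all on MA08, gave 0.51 and 0.50 for Eef1a1, -0.20 and -0.36 for Eef2, and -1.89 and -1.45 for Eef1d. Pairs of Eef1g probes on MA10 deviated within groups by a root mean square of 0.29 to 0.54, pairs on MA07 by 0.36 to 0.77, and pairs on different membranes by 0.44 to 0.93. For Eef1a1, pairs on MA10 ranged from 0.21 to 1.67 and pairs on different membranes from 0.18 to 1.54.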
